A study of Homo sapiens with 4 samples.

Results

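Aldehyde dehydrogenases are a family of enzymes, most of which oxidise aldehydes to acids, whereas ALDH18A1 carries glutamate toward proline. Here 9 genes of the family were described: ALDH1A1, ALDH1A2, ALDH1A3, ALDH1B1, ALDH2, ALDH3A1, ALDH3A2, ALDH7A1 and ALDH18A1. They were found by matching the Ensembl gene IDs of the deposited tables to GENCODE 29 symbols, and all 9 of 9 were present among 58226 genes. RNA-seq was available from 4 libraries, 1 per condition, of U87MG, an established human glioblastoma cell line, and of R-U87MG, its derivative resistant to temozolomide (TMZ), an alkylating drug used against glioblastoma. R-U87MG cells were kept in 50 µM TMZ and received non-targeting control siRNA (si-NC) or siRNA against the deacetylase HDAC6 (si-HDAC6). Parental U87MG cells received si-NC or siRNA against the long noncoding RNA LINC00461 (si-LINC00461), and RNA of all cells was taken 72 h after transfection. With 1 library per condition there was no replicate check of any difference and no test could be made. Between resistant and parental cells, resistance, the drug in the medium and any difference in handling of the knockdown pairs cannot be told apart. The labels name no batch.

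The family is best known for the removal of reactive aldehydes from alcohol, lipid peroxidation and drugs. ALDH1A1, ALDH1A2 and ALDH1A3 make retinoic acid from retinaldehyde, and retinoic acid activates the nuclear receptors RAR and RXR. High aldehyde dehydrogenase activity is widely used to mark stem-like cells, and ALDH1A3 in particular is known from mesenchymal glioma cells. Other members serve ordinary metabolism: ALDH18A1 makes the precursor of proline, ALDH7A1 breaks down lysine, and ALDH3A2 oxidises long-chain fatty aldehydes.

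The libraries held 12596072 to 20027866 fragments. The floor was 3 counts, at or under which a gene was not taken as detected, and it corresponded to 0.150 to 0.238 counts per 1000000 (CPM). The siRNAs went with less of their targets, since HDAC6 counts were 296 in the resistant control and 67 after si-HDAC6, and LINC00461 counts were 363 in the parental control and 73 after si-LINC00461. Of 7 markers of glioma and neural lineage, VIM and CD44 were abundant in all 4 libraries, and NES stood at 35.0 to 43.0 CPM. SOX2, GFAP and S100B had 0 to 13 counts and OLIG2 had 15 to 115. Markers of other cell types (PTPRC, PECAM1, EPCAM, MBP, RBFOX3, HBB and ALB) summed to 4.21 to 5.59 CPM in the R-U87MG libraries, 19.7 CPM in U87MG si-NC and 53.7 CPM in U87MG si-LINC00461. RBFOX3 had 0 counts in 3 libraries, and PTPRC and HBB in 1 each. In the last library PECAM1, an endothelial gene, had 433 counts against 52 in its control. ALB, the albumin gene, made up most of the sum in U87MG si-NC, with 272 counts, and had 18 in R-U87MG si-NC, 5 in R-U87MG si-HDAC6 and 470 in U87MG si-LINC00461, so it was lower in both resistant libraries. The other marker, CD68, which many cell lines express, had 6705 to 13054 counts. The part of these genes in the results below was not tested, and in bulk RNA fewer cells that express a gene and less RNA per cell cannot be told apart.

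ALDH1A1 and ALDH18A1 were among the members with less RNA in the resistant control. The sequences just before their start sites show how unlike the promoters of such members can be. The 150 bases before each start were taken from RefSeq (GRCh38.p14) and are written 5′ to 3′ on the gene's strand, with matches to the motifs searched in capitals. The ALDH1A1 window lies at chr9:72953054-72953203 on the minus strand and the ALDH18A1 window at chr10:95656712-95656861 on the minus strand.
ALDH1A1: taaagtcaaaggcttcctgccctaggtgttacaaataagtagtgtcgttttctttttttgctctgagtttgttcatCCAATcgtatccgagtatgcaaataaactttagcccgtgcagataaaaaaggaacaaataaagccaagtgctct
ALDH18A1: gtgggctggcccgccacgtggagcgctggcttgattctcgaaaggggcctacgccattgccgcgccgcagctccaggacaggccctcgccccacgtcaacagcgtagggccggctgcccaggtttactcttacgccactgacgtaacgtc

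The motifs searched on both strands of 250 bases were the GC box (GGGCGG), the CCAAT box (CCAAT), the TATA box (TATAAA), the retinoid receptor half-site (AGGTCA) and the core of the antioxidant response element (TGACNNNGC). Of 35116 promoters in the table, 42.6% held the GC box, 32.0% the CCAAT box, 10.7% the TATA box, 12.1% the half-site and 10.9% the antioxidant core. The 250 bases before ALDH1A1 had 38.4% G and C and a single match, the CCAAT box at −74 from the start. Those before ALDH18A1 had 68.8% G and C and no match. The same length before ALDH1A3, the most abundant member, had 82.4% G and C, 6 GC boxes, of which some overlap, and a CCAAT box at −71. The 250 bases before ALDH1B1 held 2 GC boxes and a CCAAT box at −26. Promoters were found for 7 of 9 members, and not for ALDH2 and ALDH3A1. None of these windows held the TATA box, the half-site or the antioxidant core.

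ALDH1A3 was the main aldehyde dehydrogenase RNA of these cells by length. To compare genes with each other, CPM were divided by the length of all annotated exons of a gene. ALDH1A3 stood at 70.2 CPM per kb in R-U87MG si-NC, 79.3 in R-U87MG si-HDAC6, 99.2 in U87MG si-NC and 405 in U87MG si-LINC00461. ALDH18A1 was next in every library, at 29.03, 27.1, 51.5 and 49.7 CPM per kb, respectively. By this measure each of the 2 stood apart from the next member by more than counting error.

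Behind them came ALDH3A2, ALDH1B1 and ALDH2, and their order differed between the cells. In R-U87MG si-NC, ALDH1B1 at 11.8 and ALDH3A2 at 11.03 CPM per kb had overlapping intervals of counting error, as they did in R-U87MG si-HDAC6, and ALDH2 at 1.53 overlapped ALDH7A1 at 1.44. In U87MG si-NC, ALDH3A2 stood at 7.10, ALDH2 at 6.14 and ALDH1B1 at 4.78 CPM per kb, without overlap, and ALDH1A1 at 0.74 overlapped ALDH7A1 at 0.69. ALDH1A2 and ALDH3A1 stayed under 0.16 CPM per kb in all 4 libraries. The places of the middle members depend on the length used, since the annotated exons of ALDH7A1 add up to 17970 bases and its longest coding transcript to 4964. With the median length of a gene's coding transcripts ALDH3A2 came before ALDH18A1 in R-U87MG si-NC, and ALDH1A3 was the highest member in both controls under the 3 lengths tried.

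**Figure D1:**
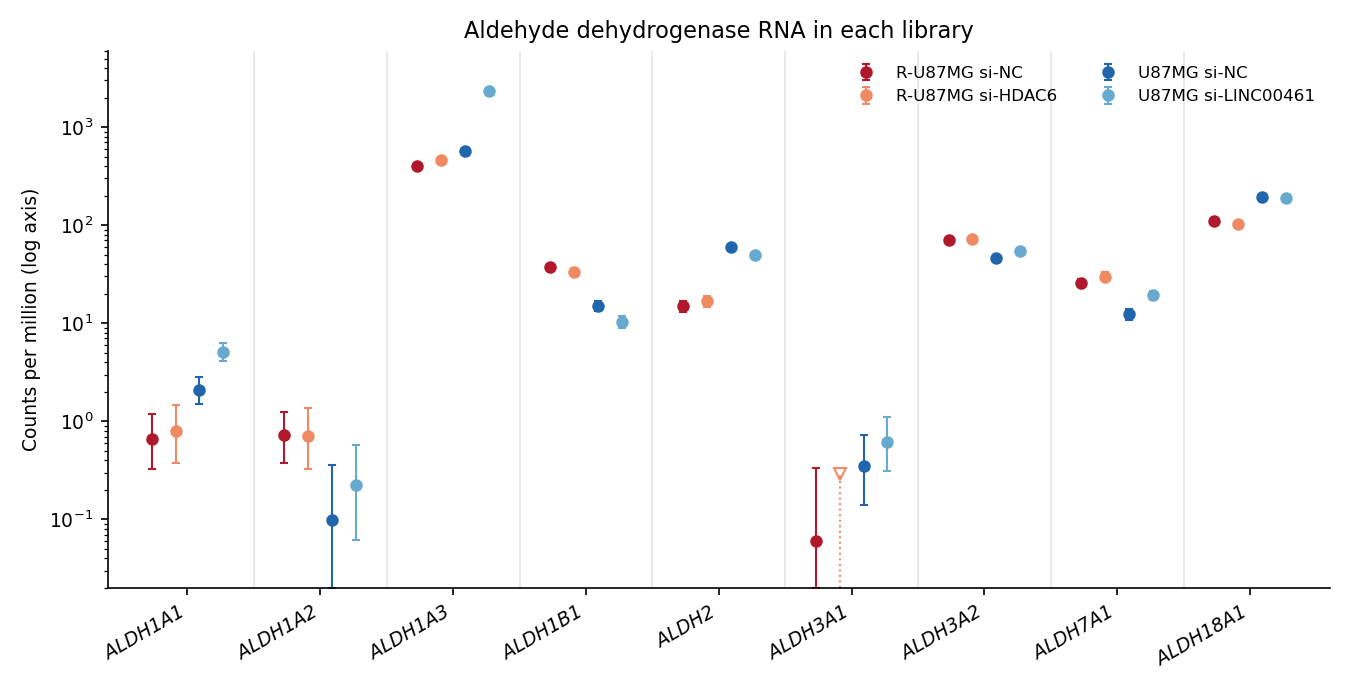
CPM (log axis) of the 9 genes in the 4 libraries, with 95% exact binomial intervals that cover counting error only. The open triangle marks 0 counts of ALDH3A1 in R-U87MG si-HDAC6 and is drawn at the upper end of its interval. ALDH2 and ALDH18A1 sit lower in both R-U87MG libraries than in both U87MG libraries, ALDH1B1 sits higher, and ALDH1A3 is highest in U87MG si-LINC00461, at 2338 CPM.

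The sum of all 19 annotated ALDH genes was 171 CPM per kb in R-U87MG si-NC, 177 in R-U87MG si-HDAC6, 210 in U87MG si-NC and 509 in U87MG si-LINC00461. ALDH1A3 made up 41.1%, 44.9%, 47.3% and 79.6% of these sums. Among 19791 protein-coding genes ranked by CPM per kb, ALDH1A3 was 426th in R-U87MG si-NC, 262nd in U87MG si-NC and 49th in U87MG si-LINC00461. Without ALDH1A3 the other 8 members summed to 55.2, 52.6, 71.1 and 69.6 CPM per kb, so that the higher total after si-LINC00461 lay in this gene.

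**Figure D2:**
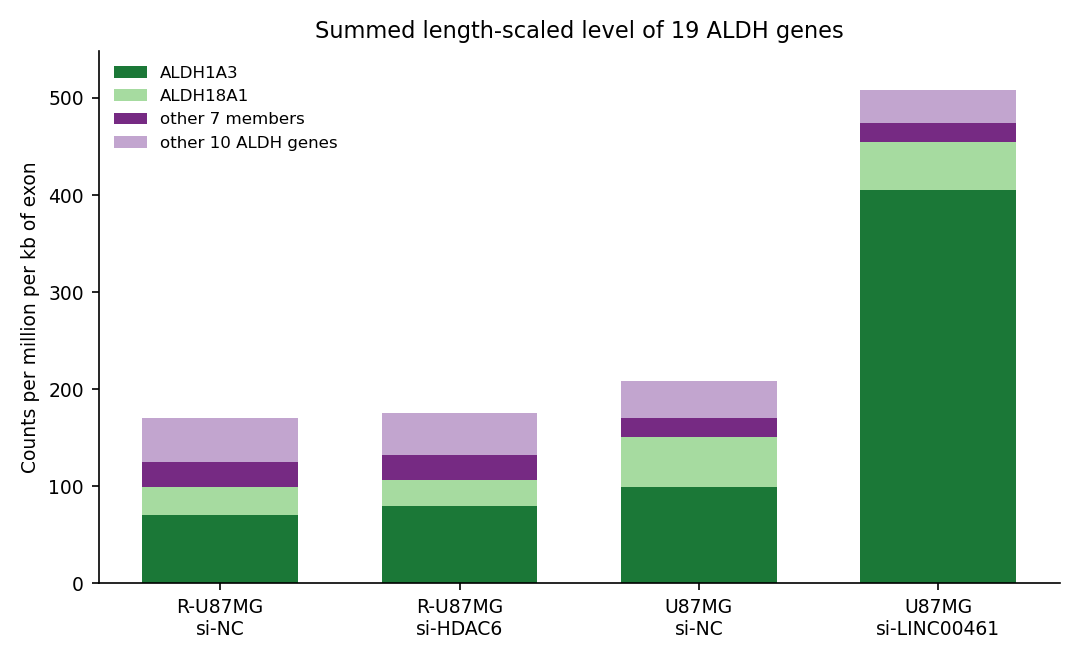
Summed CPM per kb of annotated exon of 19 ALDH genes in each library, divided into ALDH1A3, ALDH18A1, the other 7 members and the other 10 ALDH genes. The bars reach 171, 177, 210 and 509, and the ALDH1A3 portion of the last bar is 405.

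The comparison of the si-NC libraries of R-U87MG and U87MG asked how the resistant cells differ from their parent. Ratios between libraries were taken on TMM-scaled counts as log2 values, and a gene was called different when its ratio was at least 2-fold and its mean CPM at least 1. Of 9 members 7 passed this level. ALDH1B1 was higher in the resistant control and 3 members were lower, ALDH2, ALDH1A1 and ALDH18A1. ALDH1A1, at 0.66 against 2.10 CPM, passed only through the parental control, where it was higher. ALDH1A2 and ALDH3A1, which did not pass, had more counts in the resistant and the parental control, respectively. Of all 13349 genes compared, 11.2% were higher and 15% lower by this rule, so many other genes differed as well. The median log2 ratio of the members that passed was −0.76, against 0.02 over all genes. Scaled by total counts, the median of all genes moved up by 0.26 and the share of higher genes among those called went from 42.7% to 61.6%. The ratios of the members therefore hold relative to the bulk of genes.

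**Figure D3:**
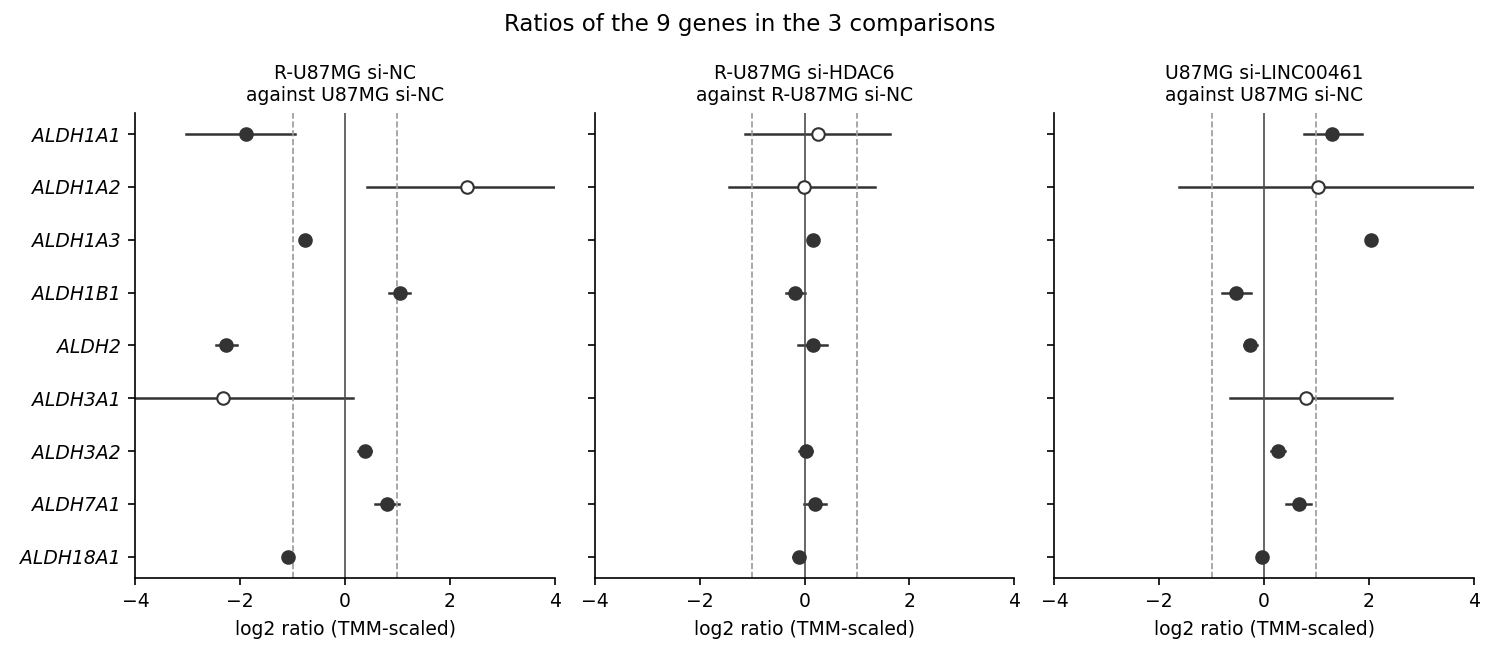
TMM-scaled log2 ratios of the 9 genes in the 3 comparisons, with 95% intervals that cover counting error only. Filled points passed the mean of 1 CPM and open points did not, dashed lines mark 2-fold, and ratios with at most 3 counts in both libraries are not drawn. Between the controls ALDH2 stands lowest of the filled points at −2.26 and ALDH1B1 highest at 1.04. All filled points of the si-HDAC6 comparison lie between −0.17 and 0.20, and ALDH1A3 stands at 2.05 after si-LINC00461.

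Among the enzymes that make retinoic acid, ALDH1A1, a cytosolic enzyme much used as a stem cell marker, was scarce. It had 11 counts in R-U87MG si-NC, 10 in R-U87MG si-HDAC6, 42 in U87MG si-NC and 91 in U87MG si-LINC00461. Both resistant libraries were below both parental ones. The level in the resistant control was 3.69-fold lower than in the parental control (log2 ratio −1.88, 95% interval −3.04 to −0.95), an interval that reaches inside 2-fold. It was under 1 CPM in the resistant control and passed only through the parental control. The gene lies on chromosome 9 from 72900662 to 73080442 on the minus strand (GRCh38), across from the pseudogene CYP1D1P.

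ALDH1A2, the main retinaldehyde dehydrogenase of the early embryo, had 12, 9, 2 and 4 counts in the same order of libraries. It was higher in both resistant libraries, but under 1 CPM in all of them. With 2 counts in the parental control the log2 ratio was 2.33, and its interval ran from 0.42 to 5.79. The gene lies on chromosome 15 from 57953424 to 58497866 on the minus strand and overlaps LIPC and other genes on the opposite strand.

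ALDH1A3 had 6742 counts in R-U87MG si-NC, 5764 in R-U87MG si-HDAC6, 11465 in U87MG si-NC and 41570 in U87MG si-LINC00461. In CPM these were 405, 458, 572 and 2338. The resistant control lay 1.70-fold below the parental control (log2 ratio −0.76, −0.81 to −0.72), which is less than 2-fold although far beyond counting error. The gene lies on chromosome 15 from 100877714 to 100916626 on the plus strand and overlaps another gene, AC015712.5, on the same strand.

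The mitochondrial acetaldehyde dehydrogenases went in opposite directions between the controls. ALDH2, which clears the acetaldehyde made from alcohol, had 248 counts in R-U87MG si-NC, 210 in R-U87MG si-HDAC6, 1196 in U87MG si-NC and 877 in U87MG si-LINC00461. Both parental libraries stood well above both resistant ones. The resistant control was 4.80-fold lower (log2 ratio −2.26, −2.47 to −2.07), the lowest ratio of the members that passed and 624th from the lowest of 13349 genes. ALDH2 lies on chromosome 12 from 111766887 to 111817529 on the plus strand. Of the 50-base stretches in its transcripts 9.15% also occur in transcripts of other genes, and its deposited values were not whole fragments in 3 of 4 libraries.

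ALDH1B1, the other enzyme of this pair, had 620, 419, 302 and 184 counts, and both resistant libraries were above both parental ones. It was 2.06-fold higher in the resistant control (log2 ratio 1.04, 0.84 to 1.24). It was thus only just past 2-fold, and its interval reaches inside 2-fold. With 59.7 CPM of ALDH2 and 15.1 CPM of ALDH1B1 in the parental control, and 14.9 and 37.3 CPM in the resistant control, the RNA with more CPM of the pair was not the same in the 2 lines. Per kb of exon this also held, at 6.14 and 4.78 against 1.53 and 11.8. ALDH1B1 lies on chromosome 9 from 38392664 to 38398661 on the plus strand and overlaps no annotated gene.

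Of the fatty aldehyde dehydrogenases 1 was scarce and the other lay within 2-fold. ALDH3A1, an enzyme abundant in the cornea that also acts on aromatic aldehydes, had 1, 0, 7 and 11 counts and passed the level in no comparison. Its 0 in R-U87MG si-HDAC6 allows up to 0.238 CPM. The log2 ratio between the controls was −2.32, with an interval from −8.30 to 0.16 that holds 0. ALDH3A2, which acts on long-chain aldehydes and at the end of sphingolipid breakdown, had 1185, 919, 918 and 974 counts. It was at 71.2 CPM in the resistant and 45.8 CPM in the parental control (log2 ratio 0.37, 0.25 to 0.50). The genes lie near each other on chromosome 17, ALDH3A1 from 19737984 to 19748943 on the minus and ALDH3A2 from 19648136 to 19677598 on the plus strand.

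ALDH7A1, also called antiquitin, had 430, 376, 248 and 344 counts. At 25.8 CPM in the resistant and 12.4 CPM in the parental control its log2 ratio was 0.80 (0.57 to 1.03), so it was the member that came nearest to 2-fold higher without reaching it. It lies on chromosome 5 from 126531200 to 126595418 on the minus strand.

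ALDH18A1, the pyrroline carboxylate synthase that carries glutamate toward proline, had 1819, 1284, 3885 and 3326 counts. It stood at 109 CPM in the resistant and 194 CPM in the parental control and was 2.13-fold lower (log2 ratio −1.09, −1.17 to −1.01). Scaled by total counts its log2 ratio was −0.83 and no longer reached 2-fold, whereas ALDH7A1 reached it at 1.06. ALDH18A1 lies on chromosome 10 from 95605929 to 95656706 on the minus strand, and none of its 50-base stretches occur in transcripts of other genes.

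HDAC6 knockdown in the resistant cells left the members near their control levels. Of 6 members that passed, 0 were called higher and 0 lower, against 0.694% and 0.747% of 13120 genes. Their log2 ratios ran from −0.17 for ALDH1B1 to 0.20 for ALDH7A1, with a median of 0.09 against −0.01 over all genes. ALDH1A3 was at 0.17 (0.11 to 0.22) and ALDH18A1 at −0.11 (−0.22 to −0.01), the members whose intervals left out 0. ALDH2 was at 0.15 (−0.12 to 0.42). ALDH1A1, with 10 and 11 counts, did not pass, and its interval of −1.14 to 1.63 holds more than 2-fold in either direction. In counting error alone, the intervals of the 6 members that passed lay wholly within 2-fold.

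LINC00461 knockdown in the parental cells went with more ALDH1A3 and ALDH1A1. Of 7 members that passed, these 2 were called higher and 0 lower, against 5.42% and 8.17% of 13210 genes. ALDH1A3 was 4.13-fold higher (log2 ratio 2.05, 2.02 to 2.08), 144th from the highest of the genes compared. ALDH1A1 was 2.45-fold higher (log2 ratio 1.29, 0.76 to 1.87), and its interval reaches inside 2-fold. The other members that passed lay within 2-fold: ALDH7A1 was at 0.66 (0.42 to 0.90), ALDH3A2 at 0.27 (0.14 to 0.40), ALDH18A1 at −0.04 (−0.10 to 0.03), ALDH2 at −0.26 (−0.39 to −0.13) and ALDH1B1 at −0.53 (−0.80 to −0.26). The median was 0.27, against 0.00 over all genes. This comparison shares its control library with that of resistant and parental cells, so no relation between them was drawn.

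Of the 10 other annotated ALDH genes, 6 passed between the controls, with a median log2 ratio of −0.31. Among these 1 was called higher and 0 lower, against 11.2% and 15% of all genes compared. The higher one was ALDH16A1, with 146 counts in the resistant and 56 in the parental control (1.38, 0.93 to 1.86), which overlaps another gene, AC010619.1, on its strand. ALDH1L2, a mitochondrial folate enzyme, had the lowest ratio, with 963 and 1608 counts (−0.74, −0.85 to −0.62). None of these 10 genes was called in either knockdown, where 6 passed in each. The shares of all genes called higher and lower were 0.694% and 0.747% after si-HDAC6, and 5.42% and 8.17% after si-LINC00461. ALDH1L2 was at −0.71 (−0.83 to −0.59) after si-LINC00461.

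Retinoic acid made by ALDH1A enzymes needs retinol carriers and dehydrogenases before it, binding proteins and receptors after it, and CYP26 enzymes to clear it. Of 21 genes of this pathway 13 passed between the controls, 2 were called higher and 6 lower, with a median of −0.90. Over all genes 11.2% were higher and 15% lower, and no test of the list was made. The receptor gene RARB had 6 counts in the resistant and 217 in the parental control (−5.06, −6.63 to −4.03). CYP26B1, which breaks retinoic acid down, had 34 and 483 (−3.81, −4.37 to −3.32). CRABP2, which carries retinoic acid to its receptors, had 179 and 1779 (−3.31, −3.54 to −3.09).

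Also lower were the transglutaminase gene TGM2 with 900 and 4932 counts (−2.45), RARRES1 with 9 and 41 (−2.12) and DHRS3, which returns retinaldehyde to retinol, with 258 and 624 (−1.27). RARB at 0.36 CPM and RARRES1 at 0.54 CPM in the resistant control passed only through the parental control, where they were higher. The 2 higher genes were RDH10, which makes retinaldehyde from retinol, with 186 and 67 counts (1.47, 1.07 to 1.90), and the fatty acid binding protein gene FABP5 with 439 and 167 (1.40, 1.14 to 1.66). RARA at −0.90, RARG at −0.55 and RXRA at 0.11 lay within 2-fold. STRA6, the retinol uptake receptor, with 31 and 2 counts, and DHRS9 with 29 and 1 did not pass, and both had more counts in the resistant control. CYP26A1 had 0 counts in all 4 libraries.

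After si-HDAC6, 13 genes of this list passed, with a median of 0.00. In either direction 0 were called, where 0.694% of all genes were higher and 0.747% lower. After si-LINC00461, 14 passed, 3 were called higher and 0 lower, with a median of 0.27. By the same rule 5.42% of all genes were higher and 8.17% lower, and no test of the list was made. STRA6 had 66 counts against 2 in the control (log2 ratio 4.92, 3.32 to 8.31). Its control count lay under the floor of 3. At 3.71 against 0.10 CPM it passed only through the si-LINC00461 library, where it was higher. RARG had 2500 against 764 (1.90, 1.78 to 2.02), and CYP26B1 had 1133 against 483 (1.42, 1.26 to 1.57). FABP5 had the lowest ratio of the list at −0.96, with 75 counts against 167. With it RARB at −0.83, CRABP2 at −0.84 and TGM2 at −0.50 were within 2-fold on the lower side. RARG, CYP26B1 and ALDH1A3 thus had more RNA after si-LINC00461, as did STRA6 from under the floor. Of the 14 genes of the list that passed, 10 had ratios above 0 and 4 below, and 0 were called lower.

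**Figure D4:**
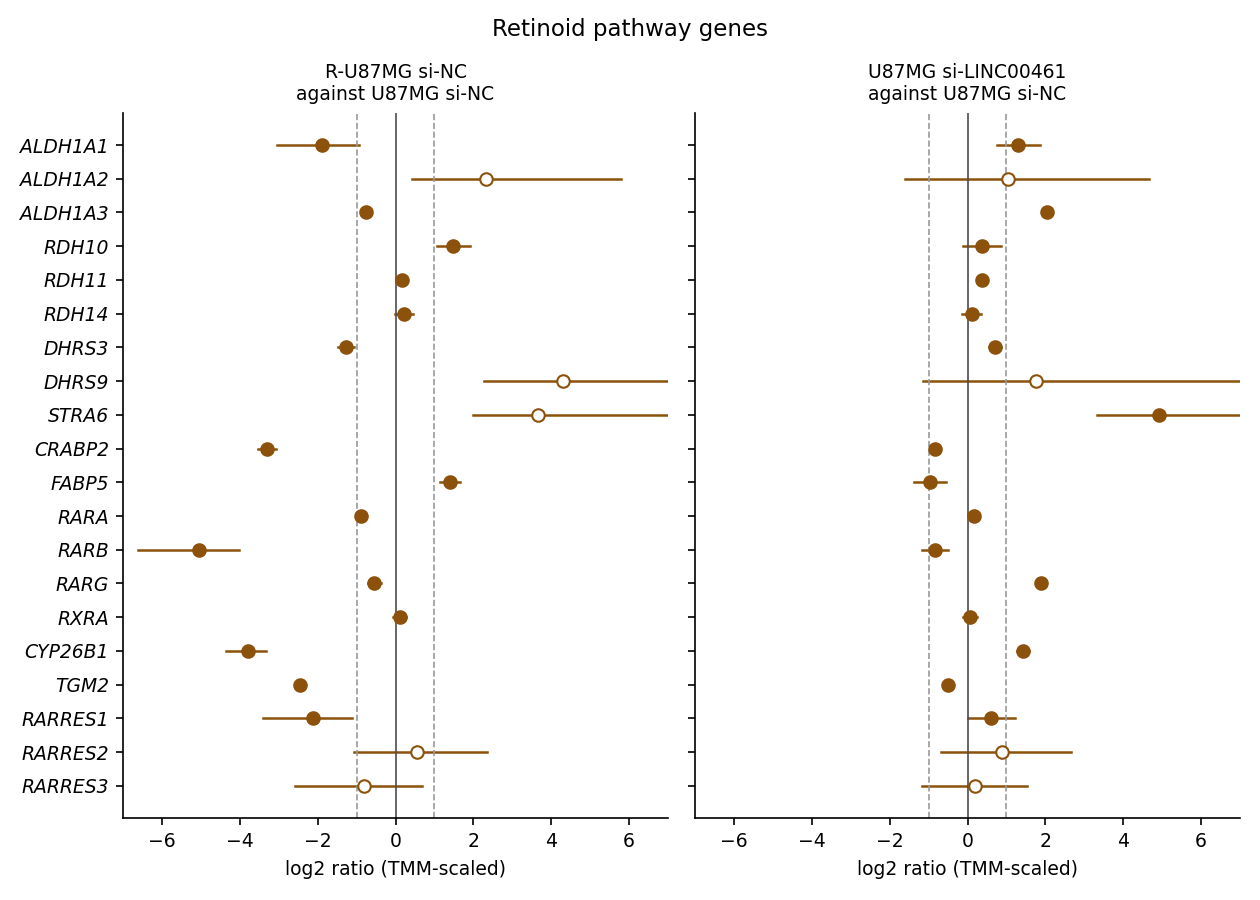
TMM-scaled log2 ratios of 3 ALDH1A genes and 17 genes of the retinoid pathway between the controls and after si-LINC00461, with 95% intervals of counting error. Filled points passed the mean of 1 CPM, open points did not, dashed lines mark 2-fold and intervals that leave the panel are cut at its edge. RARB at −5.06, CYP26B1 at −3.81 and CRABP2 at −3.31 stand lowest in the resistant control. STRA6 at 4.92 stands highest after si-LINC00461, with 2 counts in its control, under the floor. CRABP1, RXRB and CYP26A1, with at most 3 counts in these libraries, are not drawn.

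The partners of ALDH18A1 in proline metabolism were closer to their parental level. Of 6 genes found, 4 passed between the controls, with a median of −0.07. In either direction 0 were called, where 11.2% of all genes were higher and 15% lower. ALDH4A1, which acts in proline breakdown, was lowest at −0.44 (−0.99 to 0.09) with 52 and 71. A share of 37.6% of the 50-base stretches of ALDH4A1 also occurs in AL080251.1, so its counts are uncertain. In the si-HDAC6 and si-LINC00461 comparisons 0 of 5 and 0 of 4 genes that passed were called. The shares of all genes were 0.694% higher and 0.747% lower in the first, and 5.42% and 8.17% in the second. PYCR1 was at −0.78 (−0.95 to −0.62) after si-LINC00461.

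Of the 4 enzymes of lysine breakdown listed beside ALDH7A1, all passed between the controls. Here 1 was called higher and 1 lower, against 11.2% and 15% of all genes, and no test of the list was made. AADAT, which acts on aminoadipate downstream of ALDH7A1, had 545 and 205 counts (1.41, 1.18 to 1.65). AASS, the first enzyme of the pathway, had 94 and 419 (−2.15, −2.49 to −1.83). GCDH at −0.08 and DHTKD1 at −0.50 lay within 2-fold, so the genes around ALDH7A1 differed in both directions. After si-LINC00461 AADAT was lower, with 56 counts against 205 (−1.68, −2.14 to −1.25), as were 8.17% of all genes. None of the 4 was called after si-HDAC6, where 0.694% of all genes were higher and 0.747% lower.

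Beside ALDH3A2, the sphingosine kinase gene SPHK1 had 3512 counts in the resistant and 352 in the parental control (3.32, 3.16 to 3.48). SGPL1, the lyase whose product ALDH3A2 oxidises, had 973 and 567 (0.78, 0.63 to 0.93), and SPHK2 was at 0.72. SPHK1 was thus the 1 gene of 3 called, where 11.2% of all genes were higher and 15% lower. In the si-LINC00461 comparison, which uses the same parental control, SPHK1 had 1686 counts against 352 (2.45, 2.28 to 2.62). The 3 genes were not called after si-HDAC6, where 0.694% of all genes were higher and 0.747% lower.

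Of 15 enzymes that reduce aldehydes or oxidise alcohols, 9 passed between the controls, with a median of 0.45. Among these 1 was called higher and 1 lower, near the shares of 11.2% and 15% over all genes. AKR1C1, an aldo-keto reductase, had 3535 and 1208 counts (1.55, 1.46 to 1.65), and its reads may be shared with its near-identical paralog AKR1C2. AKR1B1, aldose reductase, had 9492 and 22810 (−1.26, −1.30 to −1.23). After si-HDAC6 ADH1B was called lower with 11 counts against 30 (−1.02, −2.20 to −0.02), the single call among 10 genes that passed. At 0.87 against 1.80 CPM it passed only through the control, where it was higher, and its interval nearly reaches 0. After si-LINC00461 AKR1A1 was called higher at 1.11 (0.92 to 1.30) and AKR1B10 lower at −2.59 (−3.29 to −1.99), with 24 counts against 167. The shares of all genes called higher and lower were 0.694% and 0.747% after si-HDAC6, and 5.42% and 8.17% after si-LINC00461.

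The genes most like ALDH2 over the 4 libraries were sought by the distance of their log2 CPM, each centred on its own mean, among 13368 genes. The nearest were ARSI at a distance of 0.060, ADCY8 at 0.082, PLEKHH1 at 0.089, CYTH4 at 0.096 and PHF21A at 0.110. ARSI had 506 counts in R-U87MG si-NC, 410 in R-U87MG si-HDAC6, 2282 in U87MG si-NC and 1734 in U87MG si-LINC00461. Like ALDH2, these genes were lower in both R-U87MG libraries and somewhat lower in CPM after si-LINC00461 than in its control. They were chosen for this likeness from the same libraries, so it is no separate result. The likeness rests on 4 libraries.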

How the data were processed

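The authors made strand-specific RNA-seq libraries, 1 per condition. Their processing notes name bcl2fastq, Trimmomatic 0.36, HISAT2 and GRCh38.p13, and the counting program is not given in the sources used here, so antisense overlaps may not be resolved. The deposited values are estimated counts for each Ensembl gene, each library having been scaled by its own factor (0.869, 1.15, 0.939 and 1.06) within its pair. The factor was divided out and the result was rounded, and 93.4% to 94.1% of the values lay within 0.02 of a whole number. Annotation was GENCODE 29, in which 57888 of 58226 IDs were found.

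Ratios were log2 of counts plus 0.5 over TMM-effective library sizes (edgeR 4.0.16, R 4.3.3). A pseudocount understates the change of low genes. Genes with a mean of at least 1 CPM were compared and at least 2-fold was called. Intervals are 95% Clopper-Pearson intervals of the share of counts and cover counting error only. Alternatives were DESeq2 1.42.0 size factors, total-count and upper-quartile scaling, TMM over 4 libraries, other pseudocounts, filters, folds and gene lengths, and thinning. Python 3.11.15 was used. Promoters came from RefSeq, and windows with more than 30 bases in annotated exons were not printed.

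The members and lists were chosen with earlier results of these data known. The named genes are the members, listed genes that differed at least 2-fold between the controls, the highest and lowest ratio of a list, and 5 genes nearest to the member with the largest ratio. The other genes of the lists, among them STRA6, RARG, RARA and PYCR1, and the genes called in a knockdown were named after their values were seen. Some genes of the lists are counted but not reported singly here.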

Additional observations from a re-analysis of the deposited data

How the results depend on the processing

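Of 182 ratios of members recomputed under other scalings, pseudocounts and thinning, 174 stayed within the interval of counting error of the reported value and 8 left it, and no called member changed direction. The number of members higher in the resistant control, 1 as reported, was 2 with total counts, with no filter on low counts or at 1.5-fold, and 0 with upper-quartile scaling, with thinned libraries, at 4-fold or with the interval wholly beyond 2-fold. The number lower, 3 as reported, was 2 with total counts, at a mean of at least 5 CPM or with the interval beyond 2-fold, 4 without a filter or at 1.5-fold, and 1 at 4-fold, ALDH2. The median between the controls was −0.50 with total counts, −0.81 with upper-quartile scaling and −0.20 at a mean of at least 5 CPM. After si-HDAC6, 1 member was lower without a filter, ALDH3A1 with 0 against 1 count. After si-LINC00461 the number higher, 2 as reported, was 1 at 5 CPM, at 4-fold or with the interval beyond 2-fold and 3 without a filter or at 1.5-fold, and the median was 0.66 without a filter and 0.12 at 5 CPM. The construction of these settings accounts for the changes by filter and fold, and the cause of the others was not tested. ALDH1A1, ALDH1A2 and ALDH3A1 are limited by their low counts. Without replicates, variation between cultures is not covered by any interval.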
